A study of Mus musculus with 2 samples.

Results

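The genes described here encode the subunits of the ATP-sensitive potassium channel. They were taken by symbol from the deposited feature list and are 4 of its 46984 features: Abcc8, Kcnj11, Abcc9 and Kcnj8. Transcripts were counted in single pancreatic endocrine cells of 1-month-old mice, sorted for the fluorescent reporter tdTomato and captured with a 10x 3′ kit. The control library (Neurod1 Cre/+; Isl1f/+) and the Isl1CKO library (Neurod1 Cre/+; Isl1f/f) were each made from the pooled cells of 3 animals. Both genotypes carry the Cre allele of Neurod1, a transcription factor of endocrine cells and their precursors, the reporter and at least 1 floxed allele of Isl1, a LIM-homeodomain factor of islet and neural cells. The islets of both were dispersed in actinomycin D, which blocks new transcription.

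The channel joins pore subunits of the Kir6 family to sulfonylurea receptors of the ATP-binding cassette family. ATP closes the pore, and ADP bound with magnesium to the receptor opens it, so the channel ties the membrane potential to metabolism. In beta cells the rise in ATP after glucose uptake closes the channel, and the depolarisation that follows lets calcium enter and insulin be released. Abcc8 encodes SUR1, the receptor bound by sulfonylurea drugs, and Kcnj11 encodes Kir6.2, and these form the islet channel. Abcc9 encodes SUR2 and Kcnj8 encodes Kir6.1, the pair known from vascular smooth muscle cells and pericytes, and Abcc9 is also expressed in heart and skeletal muscle.

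Each receptor gene lies next to a pore gene. On chromosome 7 of GRCm38, Kcnj11 (46093953 to 46100764) and Abcc8 (46104523 to 46180033) are 3758 bases apart, and on chromosome 6 Kcnj8 (142564837 to 142571614) and Abcc9 (142587862 to 142702315) are 16247 bases apart, all on the minus strand. The bases upstream of the starts of Abcc9 and Kcnj8 are shown (RefSeq, GRCm38.p6, minus strand, 5′ to 3′). The letters TAAT, the core that LIM-homeodomain factors and other homeodomain proteins bind, are in capitals on either strand. The windows are chr6:142702316-142702524 for Abcc9 and chr6:142571615-142571864 for Kcnj8.
Abcc9: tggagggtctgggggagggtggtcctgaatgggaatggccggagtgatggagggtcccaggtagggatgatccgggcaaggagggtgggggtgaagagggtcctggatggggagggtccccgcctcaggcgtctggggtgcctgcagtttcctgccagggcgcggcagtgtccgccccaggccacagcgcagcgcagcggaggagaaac
Kcnj8: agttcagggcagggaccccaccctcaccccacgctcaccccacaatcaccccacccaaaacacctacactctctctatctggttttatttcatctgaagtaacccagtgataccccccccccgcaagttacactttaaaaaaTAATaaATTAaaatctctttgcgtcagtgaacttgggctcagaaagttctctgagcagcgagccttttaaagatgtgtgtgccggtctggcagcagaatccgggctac

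The Kcnj8 window of 250 bases holds TAAT 2 times, once on each strand, and 54.9% of 32851 mouse promoter windows of that length hold it at least once. The Abcc9 window of 209 bases holds none, against 51.2% of windows of its length with at least 1. CANNTG, the core bound by basic helix-loop-helix factors such as Neurod1, occurs once in the Kcnj8 window (66.2% of windows hold it) and not in the Abcc9 window (60.5%). TGTTTAC, the letters of a forkhead site, is in neither, and 3.17% and 2.67% of windows hold it. All motifs were searched on both strands. For Abcc8 and Kcnj11 no promoter window was at hand, so they are named only.

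The deposited matrices hold 48685758 UMIs (unique molecular identifiers, each standing for 1 captured transcript) in the control and 86086781 in the Isl1CKO library. Endocrine cells numbered 3953 and 8131, with a median of 8853 and 8151 UMIs, and mitochondrial transcripts took 0.643% and 1.61% of their UMIs. Both libraries held cells of both sexes, although the labels call the control cells male. Cells with Xist and no Y-linked UMI (female cells) numbered 910 and 5318, and cells with Y-linked UMIs and no Xist (male cells) 1636 and 1679. With 3 animals in a pool, sex cannot be told apart from the single animals, nor genotype from the library. Isl1 transcripts stood at 304 and 246 CPM, but 3′ tags outside the deleted part do not check a deletion. The reporter tdTomato was at 1086 and 3721 CPM and the granule protein gene Chga at 9989 and 49148 CPM. Levels are given as CPM, the UMIs of a gene relative to all UMIs of a cell group, scaled by TMM. Brackets give exact 95% intervals, which cover counting error only. With 1 library per genotype no difference between genotypes has a replicate check, and none was tested.

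Abcc8 was the subunit with the most UMIs in control and one of the genes furthest lower in Isl1CKO. Control endocrine cells held 8380 Abcc8 UMIs, 210.2 CPM (206 to 215), and Isl1CKO endocrine cells 703 UMIs, 6.33 CPM (5.87 to 6.82), a log2 ratio of -5.05 (-5.17 to -4.94) or a level 33.2-fold lower. Of the 4 subunits Abcc8 alone reached 5 CPM in a library, the minimum for a gene to enter the comparison across genes. Among the 9924 genes that did, the median log2 ratio was 0.07, and 5.95% were called lower, which required a level at least 2-fold lower with an interval that excludes no change. Abcc8 had the 30th lowest ratio of them. Cells with an Abcc8 UMI made up 79.4% (78.1 to 80.6) in control but 2.68% (2.34 to 3.06) in Isl1CKO. Thinning each cell to 3000 UMIs gave 47.2% and 1.24%, and left out 172 and 684 shallower cells. As a reference, 6 of 17 control non-endocrine cells (35.3%, median 3989 UMIs) and 0 of 100 in Isl1CKO (which allows up to 3%, median 6672 UMIs) had one. RNA free in the droplets held Abcc8 at 293 CPM in control and 6.78 CPM in Isl1CKO.

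Abcc8 UMIs were found in every hormone class of the control library. Free RNA of this library was at 293 CPM, above each class, and its part in the class levels and their order was not tested. Cells in which 1 hormone alone took 1% of the UMIs or more were called by that hormone. The level was highest in Sst (somatostatin) cells at 269 CPM (248 to 292, 214 cells), followed by insulin cells at 199.8 CPM (182 to 219, 181 cells), Gcg (glucagon) cells at 183 CPM (176 to 189.9, 1564 cells) and Ppy (pancreatic polypeptide) cells at 144 CPM (132 to 155, 430 cells). Sst cells stood above insulin cells by a log2 ratio of 0.43 (0.25 to 0.61). Insulin and Gcg cells did not differ beyond counting error (0.13, -0.02 to 0.27). The order of these classes depends on the scaling: unscaled, insulin cells were at 123 CPM and Gcg cells at 192 CPM (insulin over Gcg -0.64, -0.79 to -0.50), and Sst cells stood above insulin cells by 1.55 (1.37 to 1.73). With totals that omit the hormone genes, insulin cells stood above Gcg cells by 0.26 (0.11 to 0.40). Cells with 2 or more hormones at this limit, in which the part of free RNA and doublets was not tested, were at 251 CPM (243 to 259), and the 97 cells with none at 53.9 CPM (40.0 to 71.0). Lineage transcription factors gave the same range. Cells with delta cell factor Hhex were at 270.2 CPM, cells with beta cell factors (Pdx1, Nkx6-1, Mafa) at 208 CPM and cells with alpha cell factors (Irx1 and Irx2 among them) at 177 CPM.

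**Figure D1:**
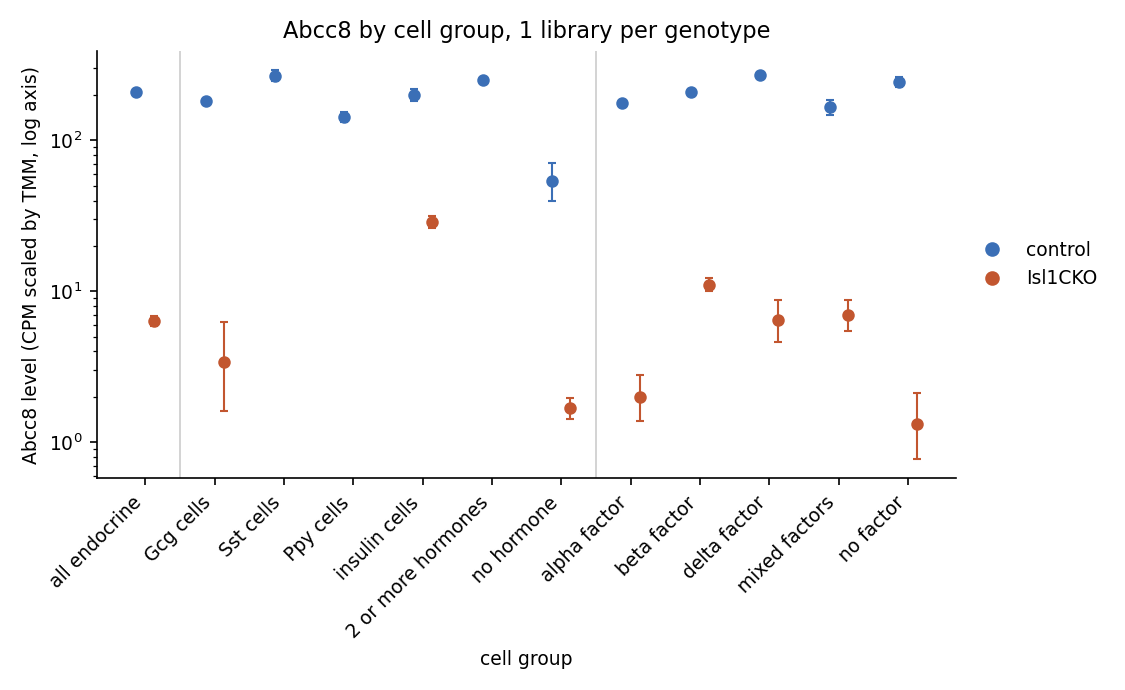
Abcc8 level (CPM scaled by TMM, log axis) in all endocrine cells, in cells grouped by hormone and in cells grouped by lineage factors, for the control (blue) and Isl1CKO (orange) library. Points are summed UMIs over a group of at least 50 cells and bars exact 95% counting intervals; control groups other than the no hormone cells lie between 144 and 270.2 CPM, and the highest Isl1CKO group, insulin cells, is at 28.8 CPM.

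In the Isl1CKO library Abcc8 was lower in each of these groups that held 50 cells or more, but not to the same level. The 172 Gcg cells held 10 UMIs, 3.39 CPM (1.62 to 6.23), with a log2 ratio to control Gcg cells of -5.76 (-6.82 to -4.88). The 1180 alpha factor cells held 34 UMIs, 2.00 CPM (1.39 to 2.80; -6.46, -6.99 to -5.97). This group rests on Irx1 (187 CPM) and Irx2 (174 CPM), which in control alpha factor cells were at 151 and 141 CPM. Delta factor cells were at 6.44 CPM (4.64 to 8.71; -5.39). Beta factor cells held 401 UMIs in 2165 cells, 11.1 CPM (10.0 to 12.2; -4.23, -4.40 to -4.06), and they rest on Nkx6-1 (183 CPM) and Pdx1 (44.4 CPM). The 927 insulin cells were highest at 28.8 CPM (26.4 to 31.5; -2.79, -2.98 to -2.61, and -1.65 unscaled), and the 7018 cells with no hormone were at 1.68 CPM (1.42 to 1.96). Genes called lower made up 10.8% in Gcg cells, 6.9% in alpha factor, 11.6% in delta factor, 5.93% in beta factor and 6.97% in insulin cells.

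In Isl1CKO, Abcc8 was higher in cells with more insulin transcripts, and among cells with a sex this rise lay in male cells. Over rising shares of insulin UMIs per cell (under 0.1%, 0.1 to 1%, 1 to 5%, and 5% and more) the control levels were 199.6, 237, 199.2 and 213 CPM. The Isl1CKO levels were 1.85, 2.79, 7.74 and 47.8 CPM. Cells at 5% or more stood above cells under 0.1% by a log2 ratio of 0.09 (-0.03 to 0.21) in control and 4.69 (4.42 to 4.98) in Isl1CKO. Unscaled, the control ratio was -0.65 (-0.77 to -0.53), at 131 and 206 CPM, with totals that omit the hormone genes it was 0.18 (0.05 to 0.30), and the Isl1CKO ratio was 4.47 and 4.88. Against control, cells at 5% or more had a log2 ratio of -2.15 (-2.33 to -1.97), or -1.13 unscaled, beside 6.86% of genes called lower in them. The 464 Isl1CKO cells with the most insulin, 5.71% of the endocrine cells, held 441 of the 703 Abcc8 UMIs, or 62.7% (59.0 to 66.3). Of these 441 UMIs, 330 lay in male and 7 in female cells. The rest lay in cells with both or neither of Xist and Y-linked UMIs.

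The Abcc8 that was left in Isl1CKO lay mostly in male cells. In control, female cells were at 190.4 CPM (182 to 199.5) and male cells at 209 CPM (203 to 216), a male over female log2 ratio of 0.14 (0.06 to 0.22), which unscaled was 0.07 with an interval that included 0. In Isl1CKO, female cells were at 1.03 CPM (70 UMIs) and male cells at 16.9 CPM (491 UMIs). The log2 ratio to control was -7.53 (-7.90 to -7.19) in female and -3.63 (-3.77 to -3.49) in male cells, beside 9.74% and 4.48% of genes called lower. Male cells were 20.6% of the Isl1CKO endocrine cells and held 69.8% (66.3 to 73.2) of the Abcc8 UMIs. Cells with both Xist and Y-linked UMIs held 66 of the 703, and cells with neither held 76. Such cells were given no sex. The sexes parted in alpha factor cells (0.402 CPM in female and 5.50 CPM in male cells) and in beta factor cells (0.611 and 27.0 CPM). Of the female lineage factor groups, delta factor cells were highest, with 29 UMIs in 321 cells (5.73 CPM, 3.84 to 8.23). A few Isl1CKO cells that kept other hormones held much Abcc8. The 3 Sst cells, all female, held 6 UMIs (78.6 CPM, 28.8 to 171). The 8 cells with several hormones, 6 of them female, held 23 UMIs (184 CPM, 117 to 277). The part of such cells in the delta factor level was not tested.

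**Figure D2:**
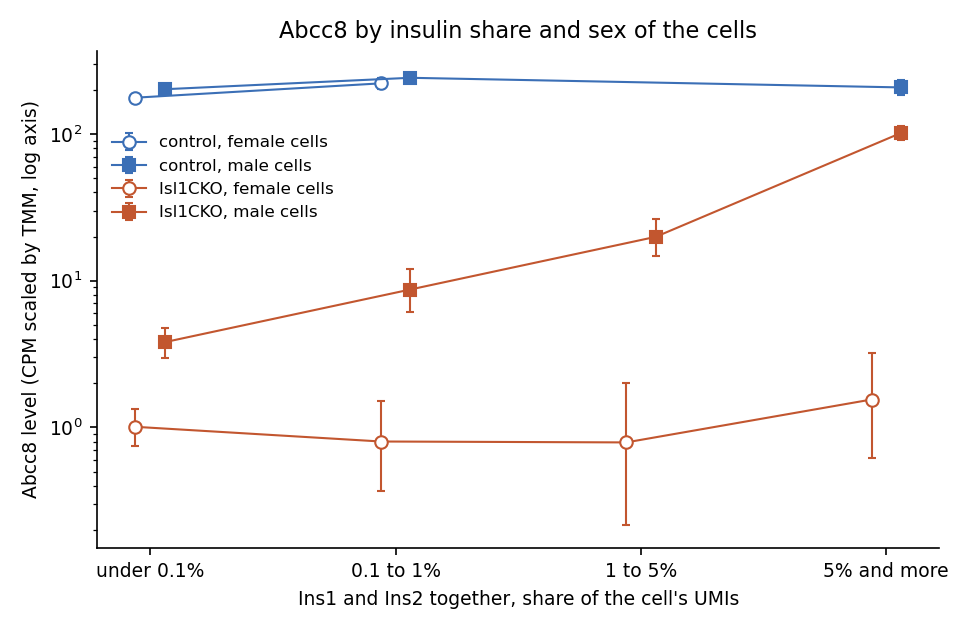
Abcc8 level (CPM scaled by TMM, log axis) by the share of a cell's UMIs that came from Ins1 and Ins2, for female (open) and male (filled) cells of both libraries, with exact 95% counting intervals and at least 50 cells per point. The control lies between 176.9 and 241.8 CPM on this scale, Isl1CKO male cells rise from 3.81 to 101.7 CPM, and Isl1CKO female cells stay between 0.79 and 1.55 CPM.

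Insulin share and sex together set the groups furthest apart. Isl1CKO male cells were at 3.81, 8.71, 19.9 and 101.7 CPM over the rising insulin shares, and female cells at 1.01, 0.80, 0.79 and 1.55 CPM. At 5% insulin or more, 148 male cells held 330 Abcc8 UMIs and 239 female cells held 7, a 65.6-fold higher level in male cells (log2 ratio 6.04, 4.98 to 7.36). In control the same male and female cells were at 208 and 204 CPM (0.03, -0.32 to 0.39), from 108 and 28 cells. Isl1CKO male cells of this class were 2.04-fold below the control male cells (log2 ratio -1.03, -1.26 to -0.80) on the TMM scale. Unscaled they were at 117 and 130 CPM and did not differ beyond counting error (-0.15, -0.38 to 0.08), and with totals that omit the hormone genes the ratio was -1.17, so the distance of these cells from control depends on the scaling. Other transcripts moved with this split and their part in it was not tested: the glucose transporter Slc2a2 was at 147 CPM in male and 9.52 CPM in female Isl1CKO cells of the class, and G6pc2, a glucose-6-phosphatase of beta cells, at 41.9 and 0.443 CPM. Among cells under 0.1% insulin, tdTomato was at 841 CPM in male and 5098 CPM in female Isl1CKO cells.

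Single cells of this class fell into cells with several Abcc8 UMIs and cells with none. Of the 148 male Isl1CKO cells 87 (58.8%) had 0, 6 had 1 and 55 had 2 or more, up to 15. Of the 108 control male cells 13 (12.0%) had 0, 22 had 1 and 73 had 2 or more, up to 14. The 55 Isl1CKO cells held 5.89 Abcc8 UMIs each at a median depth of 19398 UMIs, the 73 control cells 4.00 at 23921, and the 87 Isl1CKO cells without one had a median depth of 16554. This split was made on Abcc8 itself after its values were seen, so its sizes are a description.

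**Figure D3:**
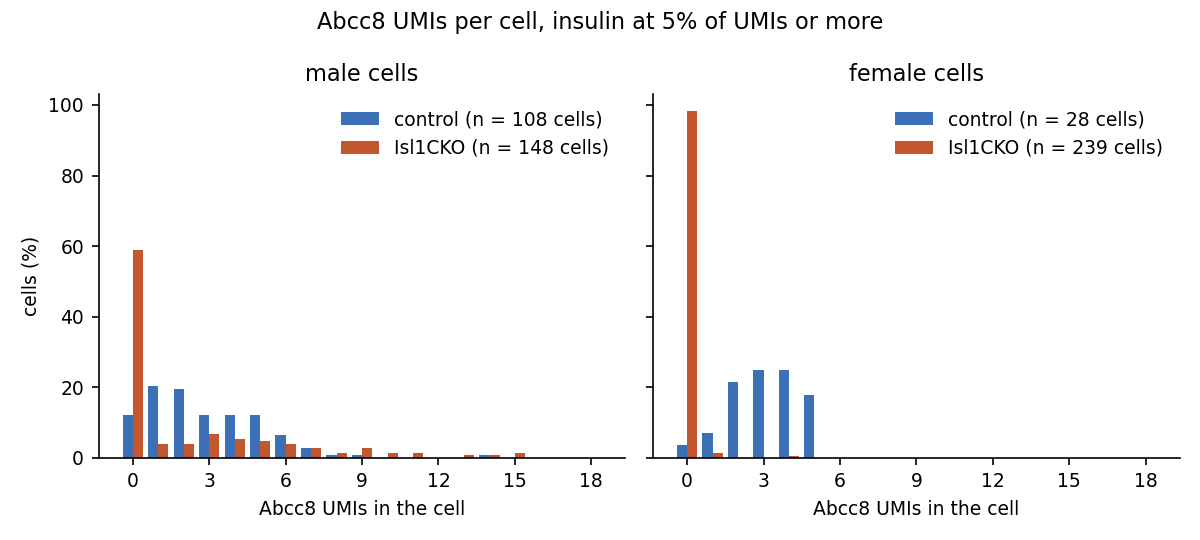
Share of cells (%) by the number of Abcc8 UMIs in the cell, among male and female cells in which insulin took 5% of the UMIs or more, control in blue and Isl1CKO in orange. Male Isl1CKO cells have 58.8% at 0 and a tail up to 15, male control cells 12.0% at 0, and 98.3% of female Isl1CKO cells are at 0.

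The male Isl1CKO cells with 2 or more Abcc8 UMIs and those with none had close values of some beta cell genes and unlike values of others (unscaled CPM). Insulin took a median of 28.8% of the UMIs in the former and 14.8% in the latter. This lowers unscaled values of other genes more in the former, so close values here are not equal levels relative to the other transcripts. Nkx6-1 was at 162 CPM in the 55 cells and 161 CPM in the 87, Pdx1 at 73.3 and 70.7 CPM, Slc2a2 at 165 and 178 CPM, and tdTomato at 1704 and 1648 CPM. Ins2 was at 296750 and 162108 CPM, G6pc2 at 75.0 and 26.0 CPM, and Ush1c, the gene next to Abcc8, at 16.7 CPM (20 UMIs) and 7.33 CPM (11 UMIs). Gcg and Ppy, abundant in the free RNA of the control library, were at 11.7 and 19.2 CPM in the 55 Isl1CKO cells and at 3455 and 2365 CPM in the 73 control cells. The barcodes found in both libraries numbered 8.

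Kcnj11, the pore subunit, was found at few UMIs and was lower in Isl1CKO by about the same ratio as its receptor. It had 50 UMIs in control and 4 in Isl1CKO endocrine cells, 1.25 CPM (0.931 to 1.65) and 0.0360 CPM (0.00982 to 0.0922), a log2 ratio of -5.12 (-7.05 to -3.68). Female cells held 12 and 0 UMIs and male cells 21 and 2 (log2 ratio -4.10, -7.24 to -2.07). Against a floor of 3 counts the female level was at least 29.1-fold lower in Isl1CKO. Alpha factor cells held 17 and 0 UMIs (at least 6.88-fold lower) and beta factor cells 4 and 2 (-3.79, -7.26 to -0.99). In control the hormone classes ran from 1.08 CPM in Gcg cells to 3.28 CPM (1.32 to 6.75, 7 UMIs) in Sst cells, and intervals overlapped. Of the 50 control cells with a Kcnj11 UMI 43 also had Abcc8 (86%, against 79.3% of other cells), and in Isl1CKO 4 of 4 did (against 2.63%).

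The count of Kcnj11 depends on its gene model. Its identifier in the files has version 1 and the annotation used here (GENCODE vM21) version 2, and where the older model ends is not given, so the levels of Kcnj11 and Abcc8 are not compared with each other. Between groups the balance of the pair can be compared, since model, depth and scaling are shared. There were 168 Abcc8 UMIs per Kcnj11 UMI in control and 176 in Isl1CKO. Kcnj11 made up 0.593% (0.441 to 0.781) of the UMIs of the pair in control and 0.566% (0.154 to 1.44) in Isl1CKO, so no shift of the balance was detectable with 4 Kcnj11 UMIs. In male cells the shares were 0.561% (0.348 to 0.856) and 0.406% (0.0492 to 1.46).

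The other pair, Abcc9 and Kcnj8, was found at low level in Isl1CKO endocrine cells and at 0 UMIs in control ones. Isl1CKO endocrine cells held 91 Abcc9 UMIs, 0.820 CPM (0.660 to 1.01), and 30 Kcnj8 UMIs, 0.270 CPM (0.182 to 0.386). Control endocrine cells held 0 of each, which allows a level of up to 0.0753 CPM. Against that floor of 3 counts Abcc9 was at least 10.9-fold higher (log2 3.44) and Kcnj8 at least 3.59-fold higher (log2 1.84) in Isl1CKO. Abcc9 was spread over the lineage classes, with 19 UMIs in alpha factor cells (1.12 CPM, 0.674 to 1.75) and 22 in beta factor cells (0.608 CPM, 0.381 to 0.920), and did not rise with insulin (0.782 CPM under 0.1% insulin and 1.08 CPM, 0.520 to 1.99, at 5% or more). RNA free in the droplets of Isl1CKO held 5 Abcc9 UMIs (0.556 CPM, 0.181 to 1.30) and 3 Kcnj8 UMIs (0.334 CPM, 0.0688 to 0.975). These intervals include the levels in cells, and the part of free RNA was not tested. Free RNA of the control library held 1 Abcc9 UMI (0.340 CPM, 0.0086 to 1.89) and 0 Kcnj8 UMIs. Between the libraries Abcc9 in free RNA did not differ beyond counting error (log2 ratio 0.71, -2.45 to 6.28).

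Abcc9 and Kcnj8 UMIs lay in female cells. Female Isl1CKO cells held 78 and 27 UMIs (1.15 and 0.397 CPM) and male cells 2 and 1 (0.0689 and 0.0344 CPM). Within female cells the level over the control floor was at least 3.57-fold higher for Abcc9. For Kcnj8 it was at least 1.24-fold higher, and the interval of the ratio reached a log2 of -0.09, so 27 against 0 UMIs did not differ beyond counting error in the 5318 and 910 female cells. In male cells neither differed detectably. Of the 109 Isl1CKO endocrine cells with an Abcc9 or Kcnj8 UMI 93 were female and 3 male, 96.9% female among those with a sex against 75.7% of the other endocrine cells. Only 1 cell had both genes and 2 had Abcc8.

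**Figure D4:**
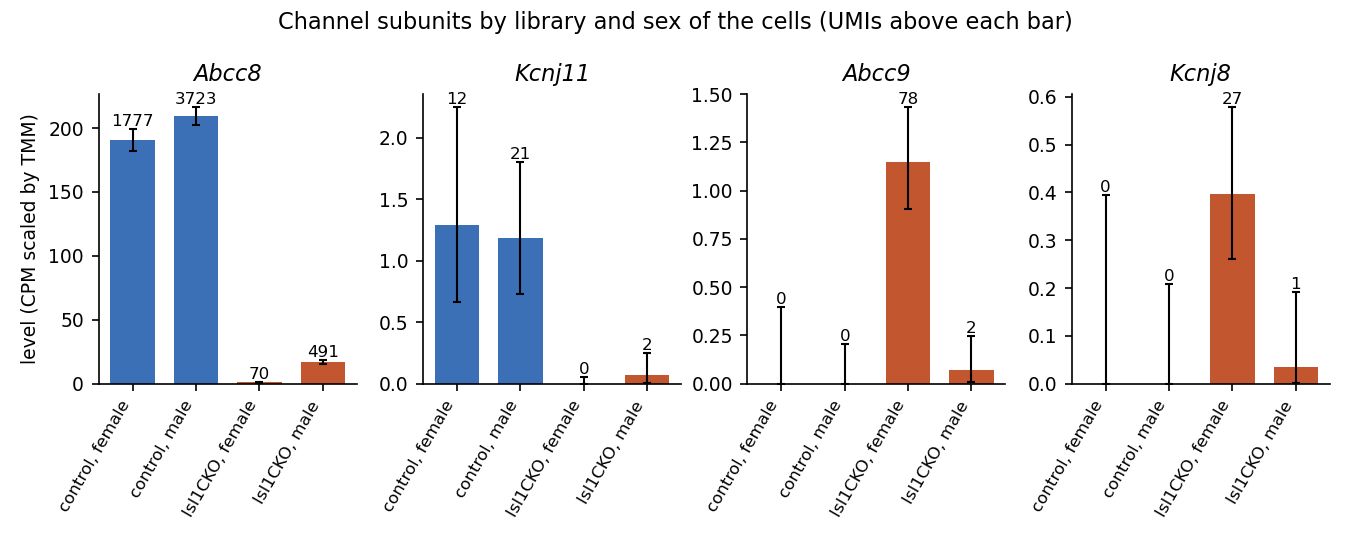
Level (CPM scaled by TMM, linear axes that differ between panels) of the 4 subunits in female and male endocrine cells of each library, with exact 95% counting intervals and the UMI count above each bar. Abcc8 and Kcnj11 are highest in the control cells of both sexes, and Abcc9 (78 UMIs) and Kcnj8 (27 UMIs) in Isl1CKO female cells.

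The subunits made up different shares of the channel transcripts in the groups. Abcc9 and Kcnj8 were 0 of 8430 subunit UMIs in control, which allows up to 0.0356%, and 121 of 828 in Isl1CKO, 14.6% (12.3 to 17.2). The share was 105 of 175 in Isl1CKO female cells, 60% (52.3 to 67.3), and 3 of 496 in male cells, 0.605% (0.125 to 1.76). It was 40.4% (27.6 to 54.2) in Isl1CKO alpha factor cells and 6.5% (4.36 to 9.25) in beta factor cells. In female cells Abcc8 stood at 190.4 CPM in control and 1.03 CPM in Isl1CKO, and Abcc9 at 0 and 1.15 CPM. Capture can differ between genes, so these shares compare groups and not the amounts of the subunits.

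Markers of vascular cells, the known site of the Abcc9 and Kcnj8 pair, were at few UMIs in the cells that held it, although pericyte markers were more frequent there than in other cells. The 15 Isl1CKO cells set aside for vascular, stromal or macrophage markers held 4 Abcc9 and 3 Kcnj8 UMIs, and 11 such control cells held 2 and 2. Among the 109 endocrine cells, 97 had no UMI of the pericyte, endothelial and stromal lists, and they held 77 of the 91 Abcc9 and 29 of the 30 Kcnj8 UMIs. In the 109 cells, 6 of the 8 pericyte markers were at 0 (among them Pdgfrb, Acta2 and Notch3), with 5 UMIs of Rgs5 and 2 of Myh11, 3 of 6 endothelial markers were at 0 (Cdh5, Flt1 and Eng), and all 7 stromal markers were at 0. A pericyte marker UMI was found in 5.50% of the 109 cells and 1.70% of the other Isl1CKO endocrine cells (5.63 and 2.16 CPM, unscaled), and an endothelial one in 5.50% and 5.77%. The part of pericyte RNA in the counts of the pair was not tested. Over all endocrine cells the summed pericyte list was at 1.08 CPM in control and 2.22 CPM in Isl1CKO (1.51 in female, 3.77 in male cells), and the endothelial list at 2.43 and 7.53 CPM (9.34 in female, 3.62 in male cells), all unscaled.

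Abcc9 shares its span with an antisense gene. 5330439B14Rik (chromosome 6, 142614595 to 142626462, plus strand) had 1 UMI in control and 202 in Isl1CKO endocrine cells, and in Isl1CKO it was at 2.44 CPM in female and 0.448 CPM in male cells. The strand setting of the counting is not given in the sources used here, so Abcc9 reads and antisense reads cannot be told apart with certainty. Of the 86 cells with an Abcc9 UMI 2 had a UMI of 5330439B14Rik (2.33%), against 2.31% of cells with neither Abcc9 nor Kcnj8. Kcnj8 does not overlap it.

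Neighbours of the 2 loci that reached 5 CPM in a library did not follow the subunits as a block. Within 200 kb of Abcc8 and Kcnj11, 4 of 9 neighbours reached 5 CPM in a library. Ush1c, which encodes the scaffold protein harmonin, was lower at 39.2 and 6.35 CPM (log2 ratio -2.62, female -2.47, male -2.83). The other three had log2 ratios of 0.42 (Ccdc114), 0.39 (Nomo1) and -0.29 (Tmem143). Around Abcc9 and Kcnj8, 4 of 10 reached the minimum, and none was called: Golt1b was at 0.79, Recql at -0.29, Cmas at -0.38 and Ldhb at -0.50. In male cells Ldhb was lower past the 2-fold limit (-1.14, -1.49 to -0.80), and in female cells it was at -0.15 (-0.48 to 0.20). Over all measured genes 5.95% were called lower and 6.77% higher, and so few neighbours cannot be set against these shares. Neither Abcc9 nor Kcnj8 reached the minimum of 5 CPM. Of the neighbours below it, the antisense gene 5330439B14Rik was higher (log2 ratio 6.18, 3.69 to 11.5), as Abcc9 was. St8sia1, also below it, was at 0.09 (-0.33 to 0.53).

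Other genes of stimulus and secretion were compared by lists. The lists were chosen with results of these data known. For every list below, the shares over all measured genes were 5.95% called lower and 6.77% called higher. Of the ATP-binding cassette C family 3 of 9 further members were measured and none was called (median log2 ratio 0.53), with Abcc5 at 24.7 and 24.2 CPM. Of 13 other inwardly rectifying potassium channels only Kcnj6 was measured, and it was lower at 8.10 and 3.75 CPM (-1.11). Of the genes that act upstream of the channel in glucose sensing, 14 of 18 were measured, 2 were lower and 1 higher (median -0.17). The glucose transporter Slc2a2 (37.5 and 14.5 CPM, -1.37) and the mitochondrial glycerol phosphate dehydrogenase Gpd2 (-1.16) were lower, and brain-type creatine kinase Ckb was higher (2.08).

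Of the genes of electrical activity downstream of the channel 16 of 17 were measured, 3 were lower and 1 higher (median 0.14). The T-type calcium channel Cacna1h (5.62 and 0.387 CPM, -3.86), the sodium channel Scn9a (51.1 and 7.60 CPM, -2.75) and the potassium channel Kcnk16 (10.2 and 5.08 CPM) were lower. The L-type calcium channel Cacna1d, at 50.7 and 100.3 CPM (0.99), was just under the limit. Of 14 genes of binding, folding and trafficking of the channel, all measured, none was lower and 2 kinases that make the channel-opening lipid PIP2 were higher, Pip5k1a (1.06) and Pip5k1b (1.03), with a median of -0.02. Of 15 measured islet transcription factors of 17, 5 were lower and none higher (median -0.28). Those reported by name here are Hhex (-2.49), Neurog3 (-2.15) and Pdx1 (-1.68). Foxa2 was at 57.6 and 60.3 CPM and Neurod1 at 199.9 and 250.1 CPM. With CPM not scaled by TMM every ratio over all endocrine cells rises by 0.52, so of the genes named in these lists Kcnk16, Gpd2, Slc2a2 and Kcnj6 would then miss the 2-fold limit and Cacna1d would pass it. With totals that omit the hormone genes every such ratio falls by 0.22, and Pip5k1a and Pip5k1b would miss it.

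**Figure D5:**
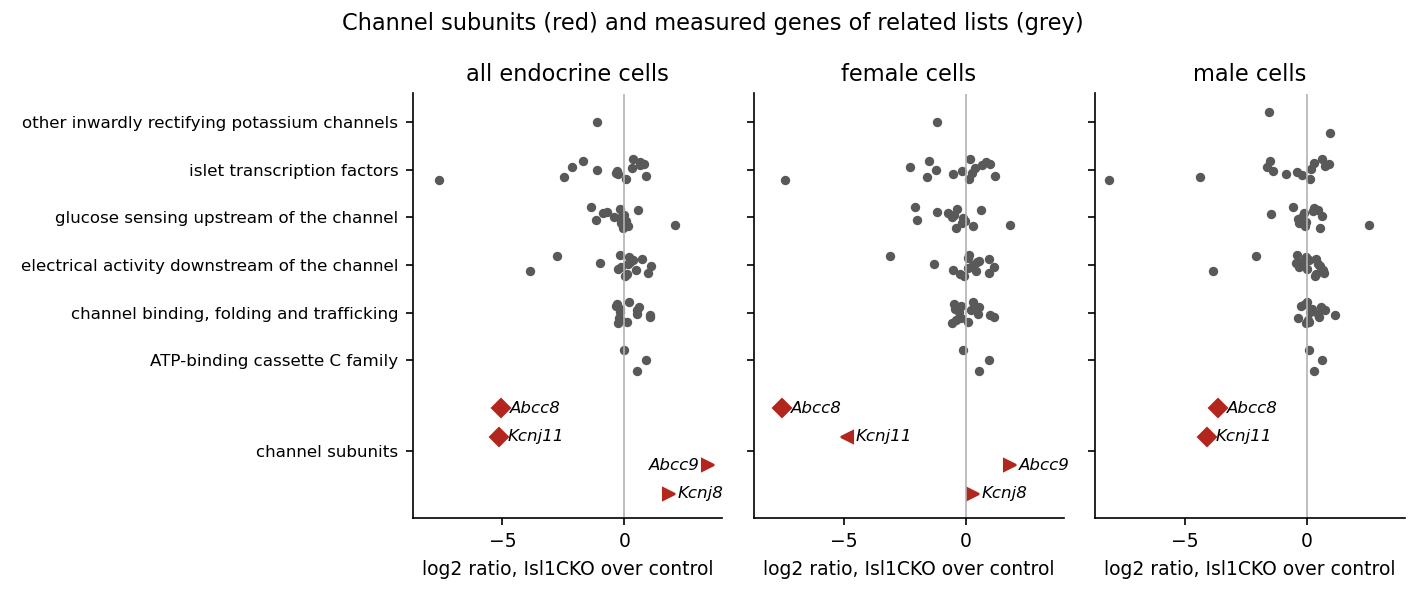
Log2 ratio, Isl1CKO over control, of the channel subunits (red; arrowheads are bounds against 3 counts, subunits without a usable ratio are left out) and of measured genes of 6 related lists (grey dots, 1 per gene), in all endocrine, female and male cells. Most grey dots lie near 0 while Abcc8 and Kcnj11 lie at -5.05 and -5.12 over all endocrine cells.

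Across cell groups Abcc8 was most like a set of genes that differed less between the libraries. Likeness was taken over 21 overlapping hormone and lineage factor groups, which share cells, libraries and scaling. The 5 genes of 6345 with the highest Pearson r of log2(CPM + 1) with Abcc8 were Anxa5 (0.98), B9d1 (0.97), Ak6 (0.97), Pycard (0.97) and N6amt2 (0.96). Anxa5, which encodes annexin A5, was at 267 and 112 CPM over all endocrine cells and Pycard at 17.9 and 4.23 CPM. For Kcnj11 they were Tesc (0.94), Gnpda2 (0.94), Ush1c (0.93), Bcl10 (0.93) and Slitrk6 (0.92). Abcc8 and Kcnj11 had an r of 0.88, Abcc9 and Kcnj8 one of 0.89, and Abcc8 and Abcc9 one of -0.91. The groups come from 2 libraries, so each r also holds the difference between them. Abcc8 was at 53.9 CPM or more in each control group used and at 28.8 CPM or less in each Isl1CKO group used. Abcc9 and Kcnj8 had 0 UMIs in all control groups. Likeness across cell groups thus cannot be told apart from the difference between libraries, and no r within a library is given.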

How the data were processed

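The deposited counts are whole-number UMI counts per gene and barcode, unfiltered, in 1 matrix per library. Per the submitters' processing notes they used STARsolo (STAR 2.7.3a), Seurat 4.3.0.1 and GRCm38.p6; the strand setting is not given in the sources used here. Cells needed 1000 UMIs, 500 genes and at most 15% mitochondrial UMIs (4219 control, 8231 Isl1CKO). Scrublet (scanpy 1.11.5, expected rate 0.05) marked 249 control cells (5.90%), which were removed, and 0 in Isl1CKO, where it did not work. Cells with acinar markers at 1% of UMIs, or vascular, stromal and macrophage markers at 0.5%, were set aside (17 and 100). Alpha and beta factor cells needed 2 UMIs of the factors of 1 lineage, delta factor cells 1 UMI of Hhex. Free RNA is the sum over barcodes with at most 100 UMIs. UMIs were summed per group of at least 50 cells, scaled by TMM (edgeR 4.0.16) to control endocrine cells and compared as log2 ratios with exact conditional 95% intervals; a count of 0 gives a bound against 3 counts over the group. Calls needed a 2-fold ratio, an interval excluding 1 and 5 CPM in a library. The ratio script was tested on simulated data. Of 46984 feature identifiers 46488 matched GENCODE vM21 without the version, which gave positions. Named genes are the 4 subunits, those list members with the furthest ratios that are reported by name here, and the 5 genes most like a subunit; neighbours, Abcc8-split genes and marker genes were named after their values were seen. Members and lists were chosen with earlier results of these data known. Some genes of the lists are counted but not reported by name here.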

Additional observations from a re-analysis of the deposited data

How the results depend on the processing

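No genotype ratio of a subunit over all endocrine, alpha factor or beta factor cells reversed under an alternative that could give a value. Scaling, tried for the Abcc8 ratios of hormone, insulin and sex groups after seeing the data, turned the sign of 2 of them, both within control: insulin over Gcg cells (0.13, unscaled -0.64) and insulin at 5% or more over under 0.1% (0.09, unscaled -0.65). Over all endocrine cells the Abcc8 log2 ratio was -4.53 with unscaled CPM, -5.27 with totals without hormone genes, -7.53 in female and -3.63 in male cells. In alpha factor cells it was -8.68 in female and -5.02 in male cells, and in beta factor cells -3.47 unscaled, -4.40 with totals without hormone genes, -3.83 with at least 3 factor UMIs, -8.38 in female and -3.0 in male cells. The bounds in female cells were 1.84 for Abcc9 and 0.30 for Kcnj8, and that of Kcnj11 in male alpha factor cells was -1.07. DESeq2 size factors, 3000 UMIs per cell, 5% mitochondrial UMIs, kept doublets and kept non-endocrine cells left each of these ratios within its counting interval, as did alternatives chosen after seeing the data: the control Scrublet threshold in both libraries, no shared barcodes, no Isl1CKO cells with Sst, Ppy or several hormones, and, for Abcc9 (at least 3.27) and Kcnj8 (at least 1.87), no cells with a vascular or stromal marker UMI. Over the alternatives the Abcc8 UMIs per Kcnj11 UMI ran from 148 to 187 in control and from 168 to 246 in Isl1CKO. With a hormone limit of 5% Abcc8 was at 47.8 CPM in Isl1CKO insulin cells and 2.30 CPM in cells with no hormone.

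Genes called lower numbered 590 and genes called higher 672 (53.2% higher). They were 285 and 2378 (89.3%) unscaled, 1129 and 528 (31.9%) with totals without hormone genes, and 2064 and 1944 (48.5%) without a minimum CPM. Against TMM, unscaled CPM shifts every endocrine ratio by 0.52 and totals without hormone genes by -0.22. No paired analysis was possible because each genotype has 1 library. Kcnj11, Abcc9 and Kcnj8 rest on 50 UMIs or fewer in control, which limits their ratios within classes.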
